A study of Arabidopsis thaliana with 4 samples.

Results

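Untreated erf6-1 plants were compared with untreated wild-type plants on 1 Affymetrix array each. A probe set, the group of short probes that measures 1 transcript, was kept when its signal reached 588 on at least 1 of the 2 arrays. This held for 8007 of 22746 probe sets. Both arrays reached 588 for 4396 of them, called bright on both arrays below, and only 1 array did so for the other 3611. Of the 8007, 4156 were named by a single gene, 2133 of them bright on both arrays. The difference between the genotypes is the log2 ratio of the signal in erf6-1 over the signal in wild type after values below 100 were raised to 100. The groups were erf6-1 untreated and wild type untreated, and 2 further arrays held erf6-1 and wild type after 2 h at 2000 µmol m-2 s-1, called high light here. All plants were in the Col-0 background and labelled as seedlings 3 weeks old, with total RNA taken from the young seedling. The labels give no promoter, allele type or number of pooled plants. With 1 array per group there was no replicate, so no p-value, standard error or SD is given, and precision is limited by how few arrays there are.

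ERF6 is a transcription factor of the AP2/ERF family, whose ethylene response factors bind the GCC box in promoters and act in responses to ethylene, pathogens and reactive oxygen species. The study set out to find genes that depend on ERF6 under reactive oxygen and strong light, and the untreated pair of arrays gives the difference between the genotypes before any such treatment. Many of the brightest transcripts of a green seedling code for photosynthesis. Some of these genes lie in the nucleus and some in the plastid genome, where neighbouring genes are often transcribed together and the RNA is then cut and processed. ERF6 itself was not analysed here, so the genotype labels were not checked against the mutated gene.

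Array medians were 320.6 and 279.2 in erf6-1 and wild type without treatment, and 206.6 and 208.05 in erf6-1 and wild type after high light. The tissue label was checked against marker genes. All 6 named leaf markers were bright on both untreated arrays, among them rubisco activase RCA with 40655 in erf6-1 and 58919 in wild type. Their summed signal was 147761 in erf6-1 and 220689 in wild type, with 5 of the 6 below 0 and LHCB4.3 above. These 6 genes appear again below in the nuclear photosystem, antenna and Calvin cycle groups, so the 2 results are not separate. Of 4 root markers with a named probe set 2 were members, both bright on both arrays, and they lay on opposite sides of 0. The root and seedling β-glucosidase PYK10, which builds up in ER bodies, had 21338 in erf6-1 and 28679 in wild type. EXPA7 had 851.8 in erf6-1 and 625.5 in wild type. No seed or guard cell marker with a named probe set reached 588, and 4 of 43 flower and pollen markers did. In whole seedlings, fewer cells of a type and less RNA per cell cannot be told apart.

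Most transcripts bright on both arrays had similar signals in the 2 genotypes. The log2 ratio had a median of -0.08, with quartiles of -0.42 and 0.25, and 94.5% of these probe sets lay within 2-fold. At least 2-fold higher in erf6-1 were 64 probe sets, 1.46% of the 4396, and at least 2-fold lower were 177, 4.03%. At 3-fold these counts were 5 higher and 23 lower, and at 4-fold they were 1 higher and 10 lower. Probe sets bright on 1 array only had to differ by construction, since the other array lay below the limit. Over all 8007, 1397 were at least 2-fold higher in erf6-1 (17.4%) and 1042 lower (13%). The split depended on scaling. Higher calls made up 26.6% of the 2-fold differences bright on both arrays as deposited, 47.4% after quantile normalisation, 42.9% after a loess fit on mean signal and 6.44% with equal array medians. For probe sets bright on at least 1 array the shares were 57.3% as deposited, 49.5%, 54.1% and 34.5% under the same 3 alternatives. The brightness limit was set anew at 580 for quantile normalisation and for equal medians, so the probe sets differed. Quantile normalisation kept 7307, of which 4055 were bright on both arrays, and equal medians kept 6565 and 3690. Setting the medians equal lowers the log2 ratio by 0.20 where both signals lie above the floor, because the erf6-1 median was the higher one. Counts of gene groups below are to be read against the shares given here for all probe sets. The directions given below are for the deposited scaling.

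**Figure D1:**
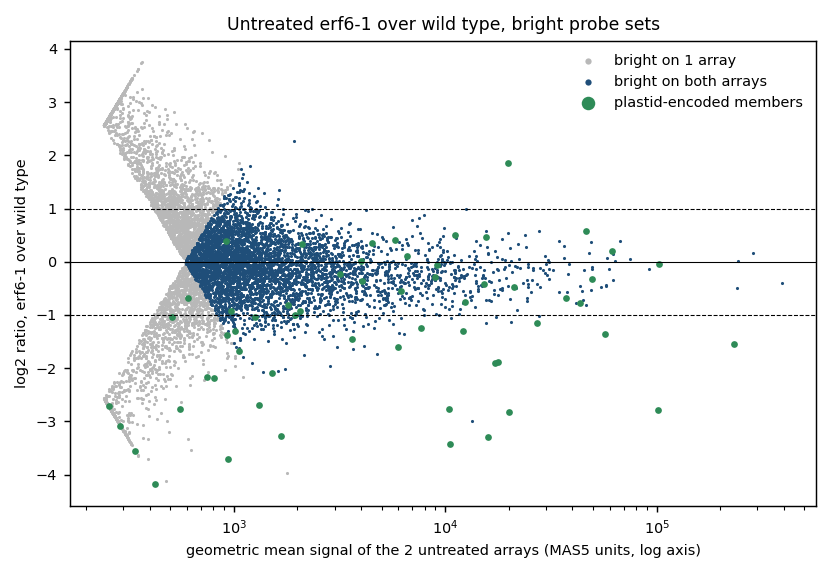
Log2 ratio of untreated erf6-1 over untreated wild type (vertical axis) against the geometric mean signal of the 2 arrays (horizontal log axis), 1 point per probe set bright on at least 1 array. Dashed lines mark 2-fold. The wedge shape on the left follows from the limit of 588 and the floor of 100, 94.5% of the probe sets bright on both arrays lie between the dashed lines, and the plastid genes lie mostly below 0.

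Repeat probe sets of 1 gene gave a measure of probe-level error on the same pair of arrays, which does not stand in for biological replicates. For 8 genes more than 1 named probe set was among the 8007. Their log2 ratios lay a median of 1.01 apart, from 0.085 to 2.10, and for 4 genes they had opposite signs. Both probe sets were bright on both arrays for 2 of these genes. There the ratios lay 0.085 apart for SDRB and 0.29 apart for AT4G16980. The members nearest the limits show how they were set. AT2G18240 entered with 253 in erf6-1 and 588 in wild type, and AT1G72420 stayed out with 587.9 in erf6-1 and 26.6 in wild type. LTI30, a cold-induced dehydrin, had 2416 in erf6-1 and 1208 in wild type and fell just short of 2-fold.

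Among the 2088 nuclear transcripts named and bright on both arrays, 26 were at least 2-fold higher in erf6-1 (1.25%) and 59 at least 2-fold lower (2.83%). Few of the genes at either end carry a symbol. EIF4A-2, an RNA helicase of translation initiation, had a signal of 2612 in erf6-1 and 8698 in wild type, a log2 ratio of -1.74. PESCADILLO (AT5G14520), a factor of ribosome biogenesis, had 1020 in erf6-1 and 2794 in wild type, a log2 ratio of -1.45. Both genes lay within 2-fold after high light, where EIF4A-2 had 3911 in erf6-1 and 5062 in wild type, and PESCADILLO 1208 and 1341. The nuclear gene with the lowest ratio, AT5G59170, had 1440 in erf6-1 and 5617 in wild type. After high light it was dim in both genotypes, with 561 in erf6-1 and 385 in wild type. AT4G32390 had 594 in erf6-1 and 2061 in wild type and was also more than 2-fold lower in erf6-1 after high light, with 416 against 980. The others of the 15 lowest had log2 ratios between -1.60 and -1.25.

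The higher group reached a log2 ratio of 1.80, held by AT2G25830 with 2225 in erf6-1 and 638 in wild type. AT1G29660 followed with 1741 in erf6-1 and 643 in wild type, and AT5G20050 had 2181 in erf6-1 and 892 in wild type. AT5G20050 was the only 1 of the 26 that was also at least 2-fold higher in erf6-1 after high light, with 966 in erf6-1 and 438 in wild type. PDF1A, a peptide deformylase that removes the formyl group from new organelle proteins, had 1923 in erf6-1 and 812 in wild type. GH3.17, which joins auxin to amino acids, had 1498 in erf6-1 and 662 in wild type. Both lay within 2-fold after high light, where PDF1A had 701 in erf6-1 and 875 in wild type after high light, and GH3.17 had 955 and 1006. GPT, the enzyme of the first step of N-glycan precursor synthesis, had 1418 in erf6-1 and 633 in wild type. SDH2-2, an iron-sulphur subunit of succinate dehydrogenase, had 1501 in erf6-1 and 683 in wild type. In all 15 of the highest the wild-type signal was between 606 and 892, close to the limit of 588.

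**Figure D2:**
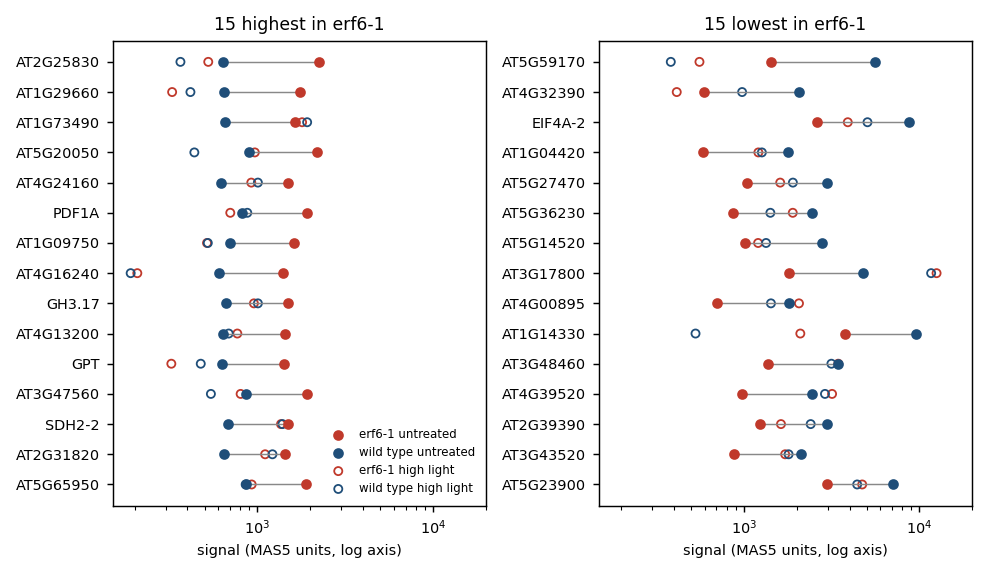
Signals (MAS5 units, log axis) of the 15 nuclear genes with the highest and the 15 with the lowest ratio among named transcripts bright on both untreated arrays. Filled red and blue points are untreated erf6-1 and wild type, joined by a line, and open points are the same genotypes after high light. The lines are long for EIF4A-2 (2612 in erf6-1 and 8698 in wild type) and AT2G25830 (2225 in erf6-1 and 638 in wild type), while most open pairs lie close together.

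Plastid-encoded transcripts lay mostly below 0. Of 69 plastid genes with a named probe set, 58 were members, 30 of them at least 2-fold lower in erf6-1 and 1 higher. Among the 45 bright on both arrays, 18 were at least 2-fold lower (40%) and 1 higher (2.22%), with a median log2 ratio of -0.77, against -0.06 for named nuclear transcripts bright on both arrays. The brightest of 5 equal classes of all probe sets bright on both arrays had a median of -0.25. The share of plastid genes in the summed signal of all probe sets was 4.39% in erf6-1 and 8.14% in wild type. After high light it was 1.93% in erf6-1 and 2.24% in wild type. The values differed widely between genes of the same complex.

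Photosystem I was low throughout its members. The small subunit gene psaJ had 38776 in erf6-1 and 266189 in wild type, psaI had 3983 and 27021, and psaC, which codes for an iron-sulphur subunit, had 378 and 1726. The reaction centre gene psaB was nearer, with 33236 in erf6-1 and 56797 in wild type. All 5 members of this group lay below 0, 3 of them by at least 2-fold, of which psaC was bright on the wild-type array only. In photosystem II, 6 of 14 members were at least 2-fold lower in erf6-1 and none higher, and among the 11 bright on both arrays 4 were lower. The D1 reaction centre gene psbA had 7514 in erf6-1 and 52917 in wild type, and psbM, which had the brightest wild-type signal of the plastid genes, had 135339 in erf6-1 and 397178 in wild type. The cytochrome b559 genes psbE and psbF differed little, with 2949 in erf6-1 and 3468 in wild type for psbE and 8948 and 9325 for psbF. The ratios of the complex ran between -2.82 for psbA and 0.50 for psbZ.

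For the cytochrome b6f complex, which passes electrons between the photosystems, 4 of 6 members were at least 2-fold lower in erf6-1, but only 1 of these was bright on both arrays, petL with 3427 in erf6-1 and 10427 in wild type. The cytochrome genes petA and petB were within 2-fold, with log2 ratios of -0.42 and -0.32. Of the ATP synthase genes 1 of 5 passed 2-fold, atpA, which codes for the alpha subunit, with 8847 in erf6-1 and 33164 in wild type. By contrast atpE, the epsilon subunit gene, had 101201 in erf6-1 and 103645 in wild type. In the NDH complex of cyclic electron flow, 5 of 8 members were at least 2-fold lower, but 3 of these were bright on the wild-type array only. Among the 5 bright on both arrays 2 were lower and the median log2 ratio was 0.21. The gene ndhD had the lowest ratio of all 45 plastid genes bright on both arrays, with 3230 in erf6-1 and 34746 in wild type. Within the same complex ndhC had 56775 in erf6-1 and 38192 in wild type, and ndhI had 65795 and 57009.

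Genes of plastid gene expression were as uneven. The RNA polymerase subunit gene rpoA was the only plastid member at least 2-fold higher, with 37815 in erf6-1 and 10449 in wild type, whereas rpoC1 of the same enzyme had 646 in erf6-1 and 1598 in wild type. The intron maturase gene matK had 5099 in erf6-1 and 49851 in wild type. Of 12 ribosomal protein genes, 4 were at least 2-fold lower and none higher, and among the 10 bright on both arrays 2 were lower. The rpl14 signal was 19.2 in erf6-1 and 1817 in wild type, at least 18.2-fold lower, while rpl16, rpl22 and rps19 had log2 ratios of 0.34, 0.38 and 0.36. The 6 remaining members were all at least 2-fold lower, 5 of them bright on both arrays. They included rbcL, the large subunit of rubisco, with 739 in erf6-1 and 3135 in wild type, and clpP, a protease subunit, with 4986 in erf6-1 and 11864 in wild type.

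Along the plastid genome, the ratios of neighbouring members lay a median of 0.96 apart on the log2 scale over 57 pairs, against 1.31 over all pairs. The adjoining genes psbE, psbF, psbL and psbJ had log2 ratios of -0.23, -0.06, 0.11 and 0.47. Next to one another in the gene order lie rpoA, at 1.86, and the ribosomal protein genes, in which rpl14 stands apart from rpl16, rps3, rpl22 and rps19. At the psbB cluster, psbB had 519 in erf6-1 and 3351 in wild type, a log2 ratio of -2.69. The next gene, psbT, had 22.6 in erf6-1 and 655 in wild type. Its ratio of -2.71 is a bound set by the floor, so how near it lay to psbB cannot be told. The genes that follow, psbN, psbH, petB and petD, lay at -0.69, -0.54, -0.32 and -1.03. Of this cluster, psbB, psbT, psbN and petD were bright on the wild-type array only and so had to lie below 0. So some adjoining genes had nearly the same ratio and others did not, and each gene was read by 1 probe set only. Of the genes in these rows, psbE, psbF, psbH, psbN and rps3 were chosen after values were seen.

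**Figure D3:**
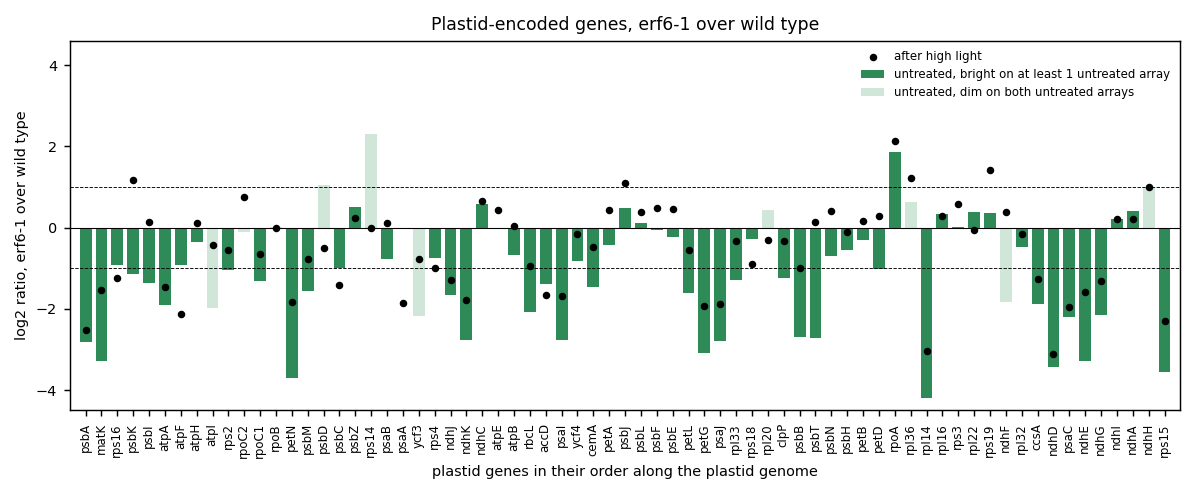
Log2 ratio of erf6-1 over wild type for plastid genes with a named probe set, in their order along the plastid genome. Bars are the untreated pair, dark where at least 1 untreated array reached 588, and points are the high-light pair. Bars point down for most genes, rpoA at 1.86 is the highest of the dark bars, and rpl14 reaches -4.18, a bound because its erf6-1 signal was under the floor.

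Nuclear genes of photosynthesis were measured by few named probe sets and none passed 2-fold. Of the 4 nuclear photosystem subunits 3 lay below 0, with a median log2 ratio of -0.58. PSAE-1, a stromal subunit of photosystem I, had 31844 in erf6-1 and 54415 in wild type, and PSAN, a lumenal subunit, had 22810 and 22045. The antenna genes LHCB4.1 and LHCB4.2 had ratios of -0.72 and -0.51, and LHCB4.3 had 0.77, with 1245 in erf6-1 and 732 in wild type. For the Calvin cycle, PRK, the phosphoribulokinase, had 5583 in erf6-1 and 8742 in wild type, RCA had a log2 ratio of -0.54, and SBPASE, the bisphosphatase, had 14727 and 12831. The medians of these 3 groups were -0.58, -0.51 and -0.54 untreated, and stayed below 0 under all 3 scalings. They were -0.27, -0.15 and -0.18 after quantile normalisation, and -0.29, -0.22 and -0.22 after the loess fit on mean signal. Most of these genes fell in the brightest of 5 equal classes of the probe sets bright on both arrays. The median log2 ratio of that whole class was -0.25. After high light the medians of the 3 groups were 0.23, 0.11 and 0.17. In chlorophyll and haem synthesis 1 of 7 members passed 2-fold, PORB, a light-dependent protochlorophyllide reductase, with 336 in erf6-1 and 1569 in wild type. PORB was bright on the wild-type array only, so its direction followed from the choice of members. None of the 6 bright on both arrays passed 2-fold. CHLM, the magnesium protoporphyrin methyltransferase, had 3371 in erf6-1 and 2454 in wild type, so genes of the pathway lay on both sides of 0.

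Genes of the redox and stress responses, the processes the study asked about, were mostly within 2-fold before treatment, as were most probe sets. The share within 2-fold was 69.5% of all probe sets bright on at least 1 untreated array and 94.5% of those bright on both. The list of oxidative stress markers, chosen before values were seen, gave no members. None of its 9 named probe sets reached 588 on either untreated array. Of 7 antioxidant members 1 passed, AER, an alkenal reductase that detoxifies lipid peroxidation products, with 163 in erf6-1 and 1491 in wild type. AER was bright on the wild-type array only, so its direction followed from the choice of members. None of the 6 antioxidant members bright on both arrays passed 2-fold. After high light AER had 1179 in erf6-1 and 980 in wild type. The glutathione reductases lay on opposite sides of 0, GR with 1515 in erf6-1 and 2337 in wild type and GR1 with 2336 and 1555, and the chloroplast ascorbate peroxidases SAPX and TAPX had log2 ratios of -0.43 and -0.21. Of 7 glutathione transferases 6 were within 2-fold, all of them bright on both arrays. GSTU23 was at least 7.30-fold higher, with 730 in erf6-1 and 56.5 in wild type, though it was under the floor in both genotypes after high light. It was bright on the erf6-1 array only, so its direction also followed from the choice of members. Among heat shock proteins and their partners, Hop3, a cochaperone that links HSP70 and HSP90, had 1323 in erf6-1 and 2983 in wild type, whereas Hop1 and Hop2 had ratios of 0.33 and 0.40. All 4 cold and drought members lay within 2-fold, as did the 3 of the ER stress response. The dehydrin COR47 had 2395 in erf6-1 and 2883 in wild type without treatment, while after high light it had 36678 and 31961.

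Of 10 members that loosen or remodel the cell wall, 3 were at least 2-fold lower in erf6-1 and none higher, where 13% of all 8007 probe sets were lower and 17.4% higher. None of the 6 bright on both arrays passed 2-fold, and their median log2 ratio was -0.09. XTH20, a xyloglucan endotransglucosylase, had 29.4 in erf6-1 and 828 in wild type, at least 8.28-fold lower, and it was also at least 3.40-fold lower after high light, with 29.5 in erf6-1 and 340 in wild type. EXPB1, a β-expansin, had 116 in erf6-1 and 847 in wild type. All 3 lower ones were bright on the wild-type array only, so their difference followed in part from the choice of members. EXPA8, bright on both and chosen after values were seen, had 1051 in erf6-1 and 2092 in wild type, just within 2-fold. All 6 tubulin genes lay below 0, with a median log2 ratio of -0.72 that stayed between -0.94 and -0.72 under the 3 scalings and as deposited. Of these, TUA1 and TUB5 were bright on the wild-type array only and so had to lie below 0. The 4 bright on both arrays also lay below 0, with a median of -0.71. TUA6, an α-tubulin, had 1565 in erf6-1 and 3182 in wild type and was the 1 tubulin past 2-fold, while TUB7 had 1458 and 1530. The receptor kinase THE1, which senses cell wall integrity, had 241 in erf6-1 and 814 in wild type, and the related FER had 608 and 398. THE1 was bright in wild type only and FER in erf6-1 only, so their opposite directions followed from the choice of members.

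Families of secondary metabolism held genes on both sides. Of 13 UDP-glycosyltransferases, enzymes that add sugars to small molecules, 5 were at least 2-fold higher and 3 lower, against 17.4% and 13% of all 8007 probe sets. All 8 were bright on 1 array only, where most probe sets pass 2-fold (1333 of 2165 bright in erf6-1 only and 865 of 1446 bright in wild type only). UGT72B3 had 1416 in erf6-1 and 285 in wild type, and UGT71C4 had 1360 and 427. UGT85A2 and UGT85A3 were low in erf6-1, with 107 in erf6-1 and 612 in wild type for UGT85A2 and 78.1 and 700 for UGT85A3. These related genes kept that order after high light, at 65.5 in erf6-1 and 362 in wild type for UGT85A2 and 34.9 and 230 for UGT85A3. None of 5 cytochromes P450 passed 2-fold. CHIL, the chalcone isomerase-like protein of flavonoid synthesis, had 237 in erf6-1 and 885 in wild type, and AOP1, a dioxygenase of the glucosinolate family, had 1081 and 251. CHIL was bright in wild type only and AOP1 in erf6-1 only, so the direction of each followed from the choice of members.

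In primary metabolism, the starch enzyme DPE1 had 602 in erf6-1 and 110 in wild type, and the sugar transporter SWEET2 had 191 and 948, while the other 5 sugar and starch members lay within 2-fold. The respiratory genes included SDH2-2, given above, its sister SDH2-1 with 1511 in erf6-1 and 917 in wild type, and SDH1-1, the flavoprotein subunit of the same enzyme, with 194 and 749. Amino acid genes were looked at after their values had been seen. Those given here, like DPE1, SWEET2 and SDH1-1 above, were bright on 1 array only. The direction of each therefore followed from the choice of members. LKR/SDH (AT4G33150), which breaks down lysine, had 1070 in erf6-1 and 46.7 in wild type, at least 10.7-fold higher, and after high light it had 3616 in erf6-1 and 2028 in wild type. MCCA and MCCB, both subunits of the carboxylase of leucine breakdown, had 962 in erf6-1 and 290 in wild type, and 665 in erf6-1 and 224 in wild type. AT-HF and HISN5B, both of histidine synthesis, were under the floor in erf6-1, with 50.3 in erf6-1 and 1003 in wild type for AT-HF and 66.4 and 811 for HISN5B. After high light the members of these pairs lay within 2-fold.

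Of 18 members of the ubiquitin pathway, 3 were at least 2-fold higher and 2 lower, shares close to the 17.4% and 13% of all 8007 probe sets, and all 5 were bright on 1 array only. PUB23, a U-box ligase that damps immune signalling, had 854 in erf6-1 and 128 in wild type. PUB19, a U-box ligase of the drought response, had 102 in erf6-1 and 920 in wild type, but 4892 in erf6-1 and 4390 in wild type after high light. Autophagy genes did not pass 2-fold in any of 6 members, and ATG8C had 1428 in erf6-1 and 864 in wild type. Subunits of RNA polymerase II, a list chosen after values were seen, lay above 0 in all 5 members, 3 of them bright on both arrays. The others were bright in erf6-1 only and so had to lie above 0. Among these, NRPB9B had 895 in erf6-1 and 38.1 in wild type, at least 8.95-fold higher. In the exocyst, also chosen after values were seen, SEC5A had 211 in erf6-1 and 908 in wild type, and SEC6 had 764 and 367. All 3 exocyst members were bright on 1 array only, so the direction of each followed from the choice of members.

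**Figure D4:**
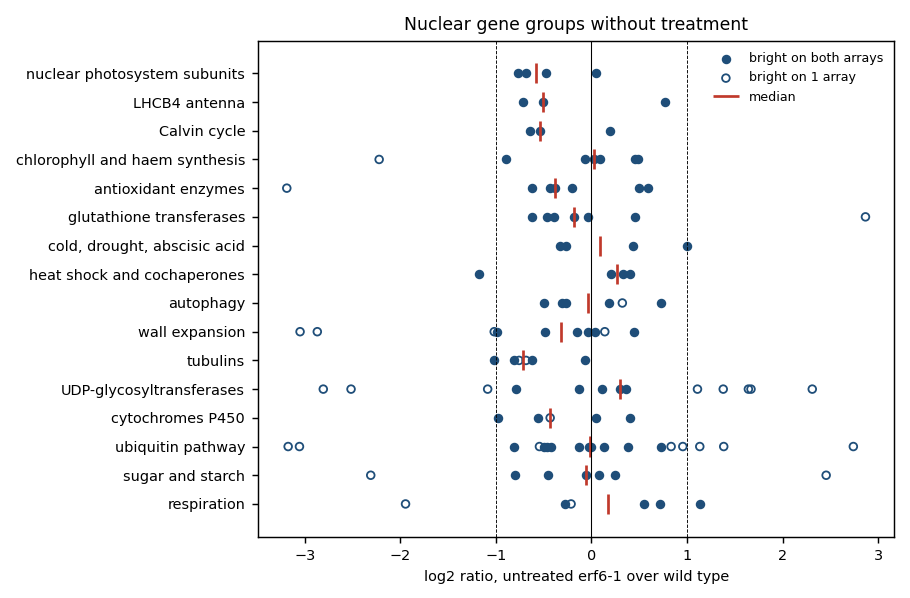
Log2 ratio of untreated erf6-1 over wild type for the members of 16 nuclear gene groups, 1 row per group. Filled points were bright on both arrays, open points on 1 array, red bars are group medians and dashed lines mark 2-fold. Filled points lie almost all between the dashed lines. The tubulin row lies below 0 throughout, its open points by construction, as they were bright in wild type only.

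Lists of regulators gave few members. No member came from the ERF and DREB, NAC or gibberellin and brassinosteroid lists. These had only 1, 2 and 3 named probe sets for 62, 92 and 44 genes, so most of their genes were not measured by a named probe set. The 2 WRKY factors among the members, WRKY20 and WRKY47, lay within 2-fold. MYBC1, a MYB-like transcription factor, had 77.5 in erf6-1 and 1085 in wild type, at least 10.9-fold lower, and 604 in erf6-1 and 716 in wild type after high light. The clock gene GI had 242 in erf6-1 and 667 in wild type, and TRY, a repressor of trichome formation, had 186 and 593. MYBC1, GI and TRY were bright on the wild-type array only, so the direction of each followed from the choice of members. From the iron list, the regulators bHLH104 and bHLH115 were above 0, with 952 in erf6-1 and 428 in wild type for bHLH104, past 2-fold, and 1714 and 931 for bHLH115, within it. That list had 6 members and was settled after values were seen. Of the others, NRAMP5 had a log2 ratio of 1.16, bHLH34 of 0.48, BHLH101 of -0.20 and AT1G47400 of -0.04. Only bHLH115 and AT1G47400 were bright on both arrays. For the rest, bHLH104, NRAMP5, bHLH34 and BHLH101, the direction followed from the choice of members. Of the 4 flower and pollen markers among the members, the MADS-box genes AGL57, AGL61 and AGL65 were at least 2-fold higher and AGL18 lay below 0. For comparison, 17.4% of all 8007 probe sets were 2-fold higher. All 4 markers were bright on 1 array only, so the direction of each followed from the choice of members. The summed signal of all 43 probe sets of that marker list was 8707 in erf6-1 and 7329 in wild type, and 13 of them were under the floor on both arrays. The part of other tissues in these values was not tested.

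Further genes bright on 1 array only held the most extreme ratios. AT3G28550 had the lowest nuclear ratio of all, with 449 in erf6-1 and 7038 in wild type, and after high light both genotypes were dim, at 160 in erf6-1 and 297 in wild type. AT1G02870 had the highest named ratio, with 1232 in erf6-1 and 79.1 in wild type, at least 12.3-fold higher, yet 426 in erf6-1 and 598 in wild type after high light. Some of the largest differences among probe sets bright on both arrays had no single gene name. Chosen after values were seen, 1 such probe set had 4717 in erf6-1 and 37692 in wild type, and the opposite order after high light, with 10444 in erf6-1 and 3247 in wild type. Another had 4254 in erf6-1 and 878 in wild type, and 2754 and 410 after high light.

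The high-light pair used other arrays, so it could be set beside the untreated pair without shared samples. Of the 64 probe sets bright on both untreated arrays and at least 2-fold higher in erf6-1, 6 were also 2-fold higher after high light and none lower, where 2.34% of the same 4396 were 2-fold higher. Of the 177 lower ones, 18 were also lower after high light and 3 higher, where 2.43% of the 4396 were lower. Among named nuclear genes this left 1 of 26 higher (high light 2.78%) and 2 of 59 lower (high light 2.25%), shares close to those of all such genes. Plastid genes recurred more often. Of 18 lower untreated, 8 were also 2-fold lower after high light, as were 24.4% of the 45, and 16 were below 0. The plastid genes lower in both pairs included ndhD with 954 in erf6-1 and 8281 in wild type after high light, psbA with 2064 and 11900, and psaJ with 10736 and 39409. The gene rpoA was higher in both, with 9873 in erf6-1 and 2255 in wild type after high light. Across probe sets the log2 ratios of the untreated and the high-light pair had a Pearson correlation of 0.83 over the 45 plastid genes, 0.12 over the 2088 named nuclear ones and 0.20 over all 4396. These probe sets share arrays and scaling and are not independent replicates.

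**Figure D5:**
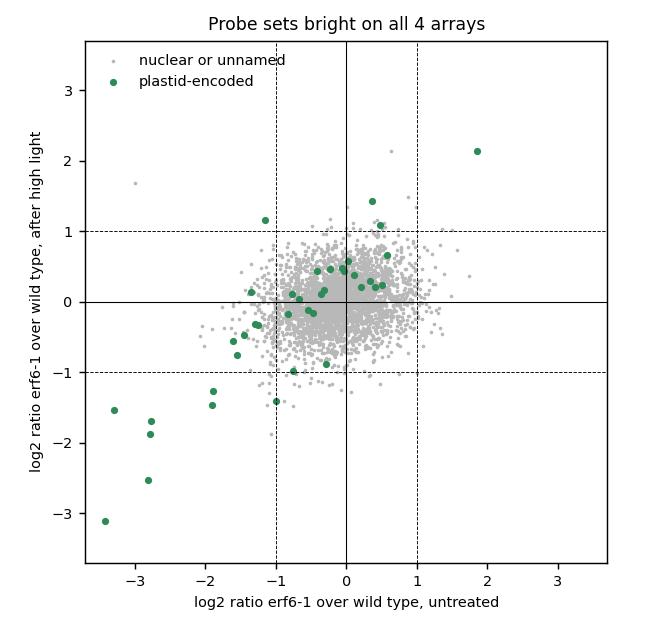
Log2 ratio of erf6-1 over wild type in the untreated pair (horizontal axis) and in the high-light pair (vertical axis) for the 3370 probe sets bright on all 4 arrays. Dashed lines mark 2-fold. Grey points, nuclear or unnamed, form a round cloud, and plastid genes spread along the diagonal, with rpoA at the upper right and ndhD at the lower left.

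The direction of the 2-fold differences varied with brightness. In the brightest of 5 equal classes of the 4396 probe sets, 1 was at least 2-fold higher in erf6-1 and 50 lower, while the second class had 30 higher and 33 lower. In the dimmest class none reached 2-fold, and the requirement that both signals be at least 588 left little room for it there. Among named nuclear genes bright on both arrays, the share at least 2-fold lower ran between 1.71% of 526 on chromosome 1 and 4.43% of 316 on chromosome 4. The share at least 2-fold higher ran between 0.46% of 432 on chromosome 3 and 1.86% of 323 on chromosome 2, and these shares rest on 2 to 15 genes each. Probe sets of the type that can match several transcripts of a family were 2-fold lower in 8.16% of 196 cases, against 3.82% of 4193 for the ordinary type.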

How the data were processed

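Total RNA was hybridised to 1 array for each of 4 groups. Values were the authors' deposited intensity signals, scaled with MAS5 per the submitters' processing notes; the version, annotation and array build are not given in the sources used here. They were linear and used as deposited. The calculations, in python 3.11.15 with pandas 2.3.3, numpy 2.4.6 and scipy 1.17.1, raised signals to a floor of 100 (the pooled 30th percentile), took log2 ratios and counted those past 2-fold among probe sets at 588 (the pooled 75th percentile) or more. Probe sets were named from the supplied platform table joined to RefSeq: of 22746, 13513 had 1 gene, 503 several and 8730 were not listed, and 13436 matched a current gene. Genes that no named probe set measures were not analysed here. A record field that speaks of early embryos is at odds with the plants and was not used.

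The members, the 86 gene lists and the alternatives were chosen with earlier results of these data known, and 18 lists were chosen or widened after values were seen; patterns of other lists were trimmed of wrongly matched genes at that stage. Named genes were the 15 highest and 15 lowest nuclear and 6 highest and 6 lowest plastid ratios bright on both arrays, the 10 highest and 10 lowest bright on 1 array, the 3 highest and 3 lowest of each list, the 20 brightest members, and those nearest the limits; others are said to be chosen after values were seen. Folds written as at least are bounds, used when 1 signal lay below the floor. Calculations were tested on simulated data with known changes. Alternatives were quantile normalisation, equal array medians, a loess fit, a pseudocount in place of the floor, a lower floor, a higher brightness limit and leaving out organelle genes.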

Additional observations from a re-analysis of the deposited data

Results flagged for a closer look

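For 10 of 319 named probe sets the genotype difference was at least 2-fold one way in the untreated pair and at least 2-fold the other way after high light. Over all 8007 probe sets this held for 86 higher and 48 lower untreated, and the 319 were named largely for their extreme ratios. With 1 array per group the difference between the pairs was not tested. Only AT1G14330 and psbK, of photosystem II, were bright on both untreated arrays. AT1G14330 had a log2 ratio of -1.35 untreated and 1.98 after high light, with 3771 in erf6-1 and 9596 in wild type untreated, and 2101 in erf6-1 and 533 in wild type after high light. The psbK ratio was -1.15 untreated and 1.16 after high light, with 18272 in erf6-1 and 40611 in wild type untreated, and 9162 in erf6-1 and 4088 in wild type after high light.

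The other 8 were bright on 1 untreated array only. AT1G07310 had -3.63 untreated and 1.31 after high light. The exocyst gene SEC6 had 1.06 and -1.52, the derlin DER2.2, a protein of ER quality control, 1.31 and -1.28, and the defensin-like PDF2.5 1.53 and -1.32. AT3G08630, at the brightness limit, had 1.57 and -1.57. The MADS-box genes AGL65 and AGL57 had 2.76 and -1.77, and 2.83 and -1.63, and the tetraspanin TET5 had 2.95 and -1.15. Some of these ratios are bounds, with 1 signal under the floor: AT1G07310 untreated, AGL65 after high light, and AGL57 and TET5 in both pairs. The high-light signals were dim, at 58.6 in erf6-1 and 342 in wild type for AGL65. They were 35.9 and 310 for AGL57, and 83.4 and 222 for TET5.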

How the results depend on the processing

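The count of 64 probe sets bright on both arrays and higher in erf6-1 became 148 after quantile normalisation, 19 with equal medians and 1 with brightness at the 90th percentile; the 177 lower became 276 and 66 under the last 2 of these. For probe sets bright on at least 1 array, the 1397 higher became 640 with equal medians and 96 at the higher brightness limit, where the 1042 lower became 213. The higher limit tests fewer probe sets, and so do quantile normalisation and equal medians, for which the limit was set anew. For the scalings the cause of the changed counts was not tested. Counts recurring after high light were 4 and 5 higher and 14 and 18 lower under the 2 scalings run, against 6 and 18. Of 147 named probe sets past 2-fold, 138 remained so after quantile normalisation, 130 with equal medians, 139 after loess, 127 with a pseudocount and 147 with the lower floor, and none reversed. Under any 1 setting at most 53 of 319 named ratios and 6 of 69 list medians moved by more than 0.33 on the log2 scale. The medians of 14 of 69 lists changed sign under at least 1 scaling, none of them a plastid, nuclear photosystem, antenna, Calvin cycle or tubulin list. No paired analysis was possible because each group had 1 array and no replicate number. The planned search for GCC boxes was not run, as no promoter sequences were used here. Dim signals limit all ratios near the floor.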
